A study of Mus musculus with 9 samples.

Results

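The genes described here are the enzymes and receptors of prostaglandin and bradykinin signalling. There were 10 of them, Ptgs1, Ptgs2, Ptges, Ptgds, Ptger1, Ptger3, Ptger4, Ptgir, Bdkrb1 and Bdkrb2, out of 21809 genes in the mRNA table. They were found by joining each mRNA transcript to its gene name in GENCODE release 21 for mouse, and the level of a gene is the sum of the FPKM (fragments counted per kilobase of a transcript, relative to all fragments mapped in that library) of its transcripts. The 10 genes had 31 transcripts in the table.

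The study sequenced 9 libraries of total RNA from the mouse trigeminal ganglion (TG), 3 in each of 3 groups. All mice were wild-type C57BL/6 males of 8 weeks, and each library pooled unilateral TG tissue from 3 mice. The saline group received 10 µl of saline into the temporomandibular joint (TMJ), and its libraries (replicates 1 to 3) are labelled as day 3. The CFA3D group (replicates 1 to 3) and the CFA6D group (replicates 4 to 6) received 10 µl of complete Freund's adjuvant (CFA) at 5 mg/ml, an emulsion that causes lasting inflammation, and were taken on day 3 and day 6. There was no saline group on day 6, so the day and the inflammation cannot be told apart in the CFA6D comparisons. A library of pooled animals hides the spread between mice, and whole TG tissue mixes neurons, glia, vessels, immune cells and connective tissue.

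Prostaglandins are made from arachidonic acid, which phospholipases release from membranes. The cyclooxygenases turn it into an unstable intermediate that terminal synthases make into prostaglandin E2, prostaglandin D2 or prostacyclin, and each product acts on its own G protein-coupled receptors. Bradykinin is cut from kininogen and acts on a receptor that is present in healthy tissue and on another that is induced by injury. In sensory ganglia such as the TG, the E2, prostacyclin and bradykinin receptors are known for making nociceptive neurons more excitable during inflammation of the tissue they serve.

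Of the 10 genes, Ptgir, which encodes the prostacyclin receptor IP, was the one whose difference from saline passed the cutoff of an unadjusted limma p under 0.05, on both CFA days. It did not pass adjustment over all genes. Its gene sum was 1.41-fold the saline level on CFA3D and 1.3-fold on CFA6D, and every CFA library lay above every saline library. For the other 8 genes that could be tested, the unadjusted p was above 0.05 in each comparison, and for most of them the libraries of 1 group differed more than the groups did. Bdkrb1, the inducible B1 receptor, was too low to test.

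The depth behind these values, estimated from the step at which low FPKM values pile up, was 30.0 to 42.2 M read pairs per library. The study reports more reads than that for each group, and the reason for the gap was not tested. Some libraries had high levels of genes typical of other tissues or of blood and marrow cells, and the source of that RNA was not tested. The summed FPKM of 6 pituitary genes reached 10656 in saline replicate 3 and lay between 8.89 and 1116 in the other libraries. The sum of 6 skeletal muscle genes was 152 in saline replicate 2, 67.6 in CFA6D replicate 6, 37.4 in saline replicate 1 and at most 8.78 elsewhere. That of 7 neutrophil and marrow genes was 132, 120 and 2630 on CFA6D. It was 46.9 to 118 in saline and 23.6 to 70.8 on CFA3D, so every CFA6D library lay above all others. The defining TG genes were present in every library, and the sum of 10 sensory neuron markers ran from 2160 to 2869 FPKM in saline, from 2700 to 3140 on CFA3D and from 2777 to 3245 on CFA6D. With bulk RNA, fewer cells of a type and less RNA per cell cannot be told apart.

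**Figure D1:**
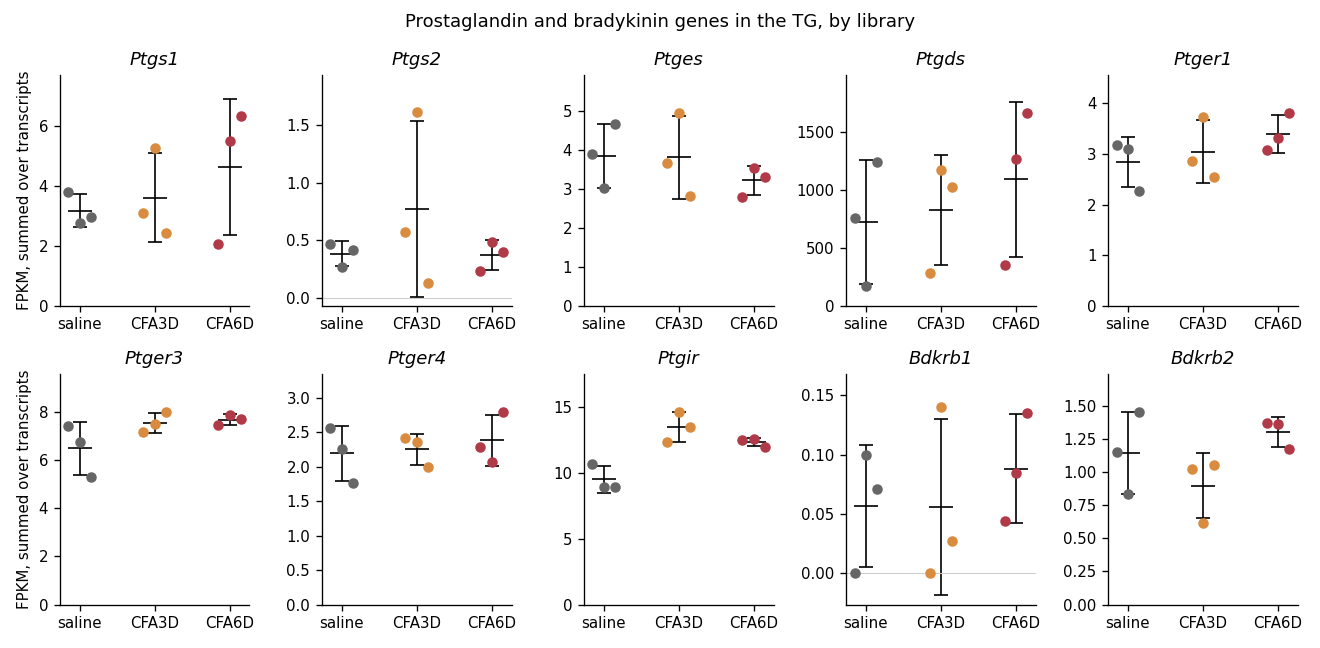
Level of each of the 10 genes by group. Each point is a library (a pool of 3 mice), the long tick is the group mean and the bars are ± SD (n = 3), on an FPKM axis that differs between panels. The 3 saline points of Ptgir lie below all CFA points, while Ptgds runs from 170 to 1662 FPKM and its groups overlap.

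Levels in the saline libraries can be compared between genes, since FPKM is per length. Ptgds had the highest mean at 724 FPKM, followed by Ptgir at 9.51, Ptger3 at 6.49, Ptges at 3.86, Ptgs1 at 3.18, Ptger1 at 2.84, Ptger4 at 2.19, Bdkrb2 at 1.15, Ptgs2 at 0.383 and Bdkrb1 at 0.0569 FPKM. The saline ranges of Ptges and Ptgs1 overlapped, as did those of Ptgs1 and Ptger1 and of Ptger1 and Ptger4. The other neighbours in this order did not overlap.

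The prostacyclin receptor gene Ptgir lies on chromosome 7, chr7:16906490-16910905 on the plus strand of GRCm38, and no other annotated gene overlaps it. Both of its transcripts were measured. They differ in the first coding part, where ENSMUST00000144408 keeps a stretch of 609 bases, chr7:16906911-16907519, that ENSMUST00000086101 splices out. With the stretch the annotated coding sequence is 1245 bases long, and without it 636 bases. The sequences around its ends are shown because they decide to which of both transcripts a read belongs. They come from the GENCODE transcript sequences, 5′ to 3′, with bases of the stretch in capitals and flanking bases in lower case. The left end is chr7:16906891-16906930, the right end is chr7:16907500-16907539, and the junction joins the flanks of both.
Ptgir left end: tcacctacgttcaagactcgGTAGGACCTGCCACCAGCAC
Ptgir right end: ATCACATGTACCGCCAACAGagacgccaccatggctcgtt
Ptgir junction: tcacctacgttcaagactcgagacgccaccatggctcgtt
The stretch starts with gt and ends with ag, the letters found at the ends of most introns.

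The Ptgir gene sum was 10.7, 8.92 and 8.93 FPKM in the saline libraries. It was 12.3, 14.6 and 13.4 FPKM on CFA3D and 12.5, 12.6 and 11.95 FPKM on CFA6D. The highest saline library thus lay below the lowest CFA library, which was CFA6D replicate 6, and the 3 CFA6D libraries lay close together. The means were 9.51 ± 1.02 FPKM in saline, 13.5 ± 1.15 on CFA3D and 12.3 ± 0.331 on CFA6D (SD, n = 3 pools each). About 855 to 1886 read pairs stood behind the value in each library.

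In the linear model of limma on log2(FPKM + 0.1), Ptgir was upregulated on CFA3D with a log2 fold change of 0.50 (SE 0.099, limma adjusted p = 0.997 over 16096 genes). The CFA6D value was 0.38 (SE 0.099, limma adjusted p = 0.196). A call in the following is an unadjusted p under 0.05, the cutoff that the study's methods name. No gene of the table reached an adjusted p under 0.05 in any comparison, while 717 genes on CFA3D, 1781 on CFA6D and 1190 between the days had an unadjusted p under it. CFA6D and CFA3D differed by -0.12 for Ptgir (limma adjusted p = 0.777, 95% interval -0.34 to 0.10). Both CFA groups were set against the same saline libraries, so the changes on both days are not independent of each other.

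Ptgir was 1 of 9 tested genes called on CFA3D and 1 of 9 on CFA6D. Among all 16096 genes tested, 4.45% were called on CFA3D and 11.1% on CFA6D, and 3.65% and 8.22% were called as higher. All 6 CFA libraries lay above all saline libraries for Ptgir, as they did for 3.34% of all genes. The number of calls alone therefore does not set these 9 genes apart from the table. Between the days none of the 9 was called, against 7.39% of all genes.

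The call of Ptgir depended on the scale. Relative to the summed neuron markers, a scale chosen after seeing the data, its log2 fold change was 0.28 on CFA3D (not called) and 0.15 on CFA6D (not called). On this scale the median of all genes lay at -0.16 on CFA3D and at -0.20 on CFA6D, against 0.05 and 0.03 on the FPKM scale. Ptgir per 1000 FPKM of neuron markers was 3.72, 3.48 and 4.13 in saline, 4.17, 5.41 and 4.28 on CFA3D and 3.85, 4.52 and 4.24 on CFA6D. The CFA3D values of this ratio lay above all saline values (two-sided exact permutation p = 0.1, the smallest possible with 3 against 3 libraries), and the CFA6D values overlapped with saline (exact p = 0.2). Saline replicate 3 had the highest pituitary sum and CFA6D replicate 6 the highest neutrophil and marrow sum. Without both, Ptgir was still called, with 0.46 on CFA3D and 0.36 on CFA6D. CFA6D replicates 4 and 5, with pituitary sums of 1116 and 409 FPKM, stayed in, as did saline replicate 2 with its muscle RNA.

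**Figure D2:**
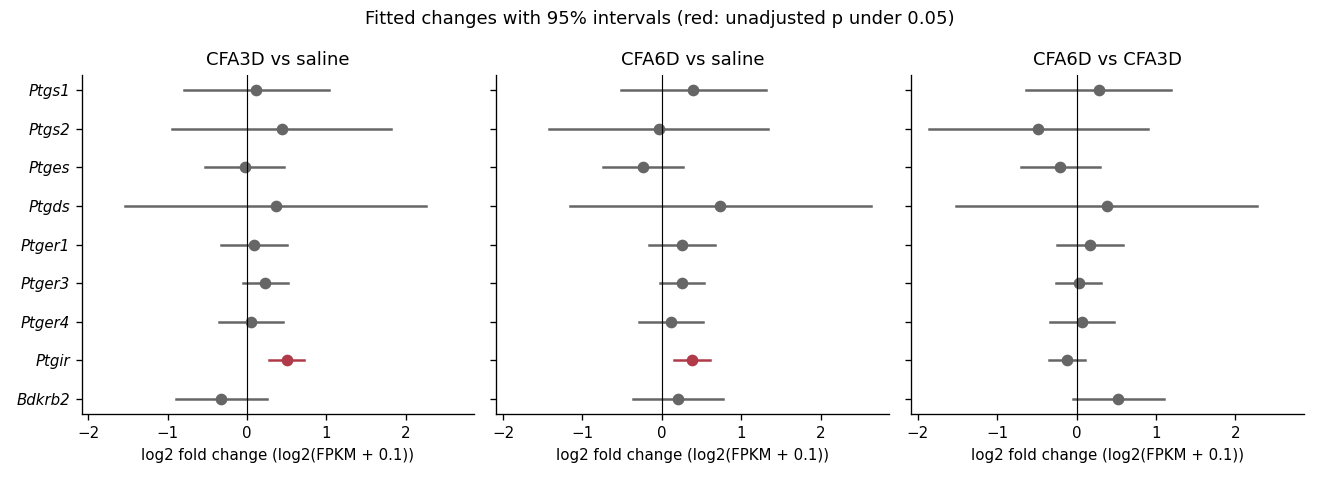
Log2 fold change of the 9 tested genes in each comparison, on the scale of log2(FPKM + 0.1). Points are limma estimates from all 9 libraries, lines are 95% intervals and red marks an unadjusted p under 0.05. Ptgir is the red gene on CFA3D (0.50) and CFA6D (0.38), and the intervals of all other genes cross 0.

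The longer Ptgir transcript ENSMUST00000144408, which keeps the stretch printed in capitals, held 90.9% of the gene's FPKM over the 9 libraries. It was at 9.49, 7.19 and 8.42 FPKM in saline, at 11.6, 13.6 and 11.9 on CFA3D and at 11.5, 11.6 and 11.1 on CFA6D. The groups did not overlap on either day. Its log2 fold change was 0.56 on CFA3D (SE 0.126, limma adjusted p = 0.766) and 0.45 on CFA6D (SE 0.126, limma adjusted p = 0.547).

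The spliced transcript ENSMUST00000086101 was low in every library, between 0.501 and 1.72 FPKM. The share of the longer transcript was 88.9%, 80.7% and 94.4% in saline, 93.9%, 93.1% and 88.3% on CFA3D and 91.8%, 92.2% and 92.7% on CFA6D. These shares overlapped between saline and both CFA groups (two-sided exact permutation p = 0.7 and 0.4). How the authors' software divided reads between overlapping transcripts is not given in the sources used here, so these shares carry an error that replicates do not show.

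The genes most like Ptgir over the 9 libraries, among the 13174 other genes whose mean reached 1 FPKM, were Stk39 (Pearson r = 0.973 on the log2 scale), Cdk20 (r = 0.965) and Mapre1 (r = 0.964). Stk39 encodes a kinase that regulates ion transporters, and Mapre1 a protein that binds the growing ends of microtubules. All 3 were lowest in saline replicates 2 and 3, as Ptgir was. These r values describe 9 libraries that share groups and tissue make-up, and the highest of 13174 are high by choice.

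The other prostanoid receptors of the group bind prostaglandin E2. Ptger3 encodes EP3, which mostly couples to inhibitory G proteins and is known in sensory neurons. Its gene sum was 7.41, 6.77 and 5.28 FPKM in saline, 7.17, 7.51 and 8.001 on CFA3D and 7.48, 7.90 and 7.70 on CFA6D. Every CFA6D library lay above every saline library, though replicate 4 exceeded saline replicate 1 only narrowly, and the CFA3D libraries overlapped with saline.

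For Ptger3 the log2 fold change was 0.23 on CFA3D (SE 0.125, limma adjusted p = 0.997, 95% interval -0.05 to 0.51) and 0.26 on CFA6D (SE 0.125, limma adjusted p = 0.503, 95% interval -0.03 to 0.54). These values turned on single saline libraries. Without saline replicate 1 the changes were 0.33 (called) and 0.36 (called). Without saline replicate 3, the library with the most pituitary RNA and the lowest neuron marker sum, they were 0.09 (not called) and 0.12 (not called). Relative to the neuron markers they were 0.01 and 0.03. The part of neuron content in this difference was not tested.

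Most of the Ptger3 FPKM was assigned to a transcript without a coding sequence. ENSMUST00000196682, annotated as a retained intron, held 84.1% to 91.1% of the FPKM in each library and 88.7% over all. Its share did not differ beyond the spread between groups (two-sided exact permutation p = 0.9 on CFA3D and 0.5 on CFA6D). The coding transcripts ENSMUST00000173533 and ENSMUST00000041175 had means of 0.623 and 0.194 FPKM. The level of Ptger3 was thus mostly assigned to a noncoding transcript, and the coding ones were too low for a comparison of their own to weigh much. The noncoding transcript starts at the same base as ENSMUST00000173533 and lies within its span. As for Ptgir, how reads were divided between such transcripts is not given, so these shares carry an error that replicates do not show. The genes most like Ptger3 were Ubr3 (r = 0.984), Garnl3 (r = 0.969) and Ubash3b (r = 0.945).

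Ptger1 encodes EP1, which acts through calcium. It was at 3.17, 3.09 and 2.27 FPKM in saline, 2.86, 3.73 and 2.54 on CFA3D and 3.07, 3.31 and 3.80 on CFA6D. The groups overlapped on both days. The log2 fold changes were 0.09 (limma adjusted p = 0.997, 95% interval -0.33 to 0.51) and 0.26 (limma adjusted p = 0.666, 95% interval -0.16 to 0.67).

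The Ptger1 transcript ENSMUST00000019608, which is coding, held 46.4% to 60.7% of the FPKM. The retained-intron transcript ENSMUST00000159935 held most of the rest, with a mean of 1.43 FPKM. Spef1 (r = 0.962), Scamp2 (r = 0.957) and Rab43 (r = 0.955) had the pattern most like Ptger1.

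Ptger4 encodes EP4, which raises cyclic AMP, as IP does. Its gene sum stayed between 1.76 and 2.79 FPKM, at 2.56, 2.25 and 1.76 in saline, 2.41, 2.36 and 1.996 on CFA3D and 2.28, 2.07 and 2.79 on CFA6D. The log2 fold changes were 0.05 on CFA3D (limma adjusted p = 0.997, 95% interval -0.35 to 0.45) and 0.12 on CFA6D (limma adjusted p = 0.837, 95% interval -0.28 to 0.52). Part of the gene overlaps Ttc33 on the opposite strand over 11676 bases, and Ttc33 had a mean of 15.8 FPKM. The study's methods name a stranded kit and the sample labels an RNA kit without that word, and whether reads were counted by strand is not given in the sources used here. For Ptger4, as for any of these genes, reads of the opposite strand therefore cannot be told apart with certainty. Closest to Ptger4 in pattern were Ptpre (r = 0.978), Olfml2b (r = 0.948) and Tdrd7 (r = 0.944).

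The make-up of Ptger4 moved more than its sum. Its coding transcript ENSMUST00000120563 was at 1.24, 1.51 and 0.828 FPKM in saline, at 0.335, 0.387 and 1.03 on CFA3D and at 0.920, 1.34 and 1.93 on CFA6D. CFA3D replicates 1 and 2 were thus low and CFA3D replicate 3 was within the saline range. This transcript was called lower on CFA3D, with a log2 fold change of -1.02 (SE 0.420, limma adjusted p = 0.989), and higher on CFA6D than on CFA3D by 1.22 (SE 0.420, limma adjusted p = 0.918). The groups overlapped in both comparisons. The call on CFA3D was kept in 4 of 13 alternatives. It was lost with a pseudocount of 1 (-0.49), a minimum mean of 1 FPKM, no filter, only the groups compared or a replicate block. Leaving out saline replicate 1 (-0.98), saline replicate 2 (-0.85), CFA3D replicate 1 (-0.77) or CFA3D replicate 2 (-0.85) also ended it.

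The other coding transcript of Ptger4, ENSMUST00000047379, was high where the first was low, at 1.80 and 1.64 FPKM in CFA3D replicates 1 and 2 and between 0.386 and 1.04 FPKM elsewhere. Both transcripts end at the same base and start close to each other, with coding lengths of 1464 and 1539 bases. The share of ENSMUST00000120563 was 48.5%, 67.1% and 46.9% in saline and 13.9%, 16.4% and 51.4% on CFA3D (two-sided exact permutation p = 0.3). It was 40.3%, 64.7% and 69.1% on CFA6D (exact p = 0.9 against saline and 0.2 against CFA3D). Whether the division of reads between such similar transcripts moved rather than their RNA was not tested.

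Among the 23 transcripts of these genes that could be tested, 2 were called on CFA3D, 1 on CFA6D and 1 between the days. Of all 66562 transcripts tested, 4.68%, 6.81% and 5.42% were called in these comparisons.

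**Figure D3:**
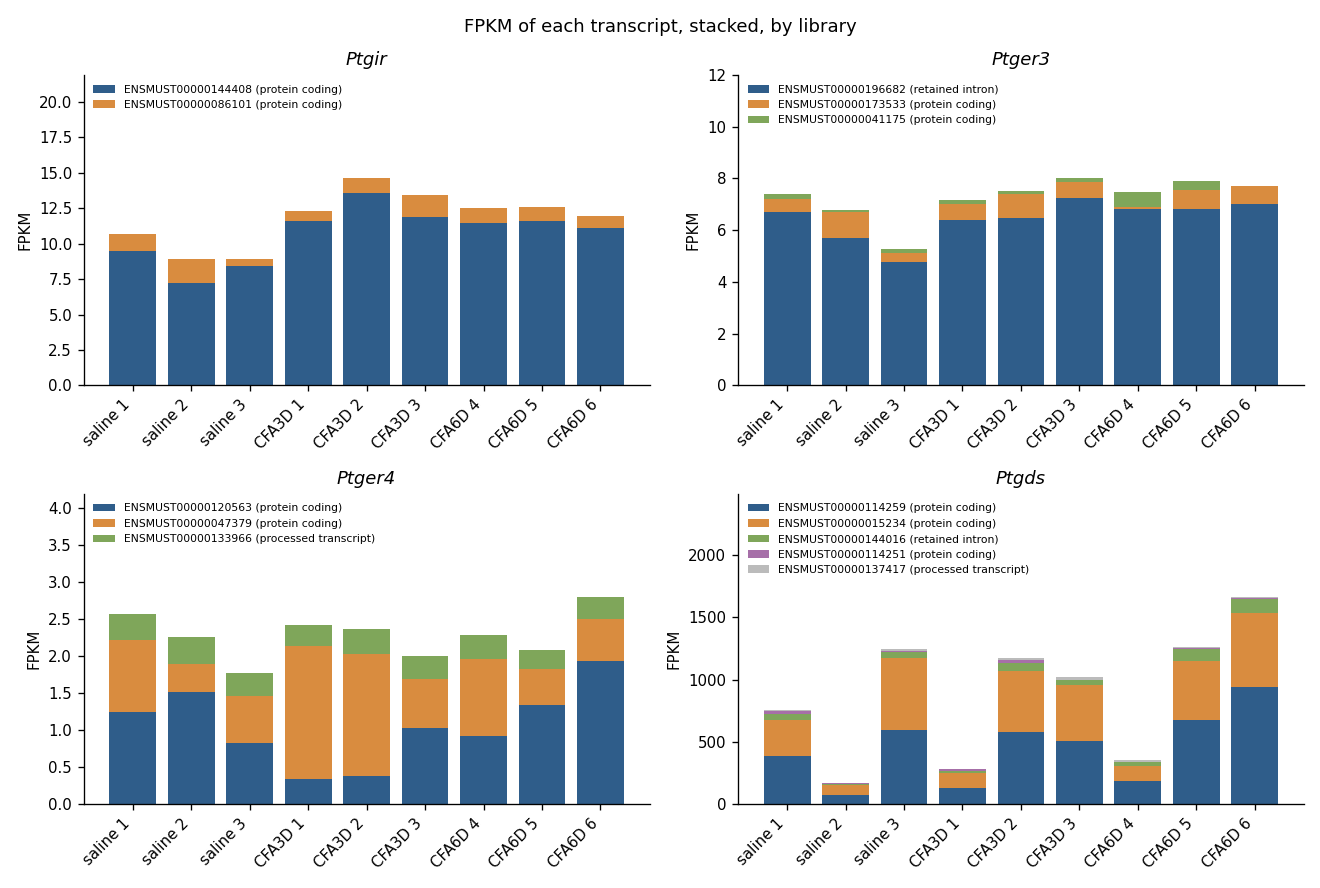
FPKM of each transcript of Ptgir, Ptger3, Ptger4 and Ptgds, stacked by library (1 bar per library, no error bars). The longer Ptgir transcript makes up most of every bar, a retained-intron transcript most of every Ptger3 bar, and the 2 coding transcripts of Ptger4 change places in CFA3D replicates 1 and 2.

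The cyclooxygenases open the pathway. Ptgs1 encodes COX-1, the form found in resting tissue. It was at 3.81, 2.77 and 2.97 FPKM in saline, at 3.11, 5.29 and 2.44 on CFA3D and at 2.07, 5.496 and 6.35 on CFA6D. The CFA groups each held the values above and below those of saline, and the SD on CFA6D was 2.27 FPKM against 0.554 in saline. The log2 fold change was 0.12 on CFA3D (limma adjusted p = 0.997, 95% interval -0.80 to 1.03) and 0.40 on CFA6D (limma adjusted p = 0.756, 95% interval -0.52 to 1.31). Without CFA6D replicate 4, the lowest library, the CFA6D value was 0.89 (called).

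The genes most like Ptgs1 were Ccn3 (r = 0.981), Srsf2 (r = 0.970) and Ptgis (r = 0.965). Ptgis encodes prostacyclin synthase, which makes the ligand of the receptor IP, and was at 2.70, 1.88 and 2.28 FPKM in saline, at 3.02, 4.55 and 1.59 on CFA3D and at 1.07, 4.38 and 5.19 on CFA6D. Like Ptgs1, it was high in CFA3D replicate 2 and in CFA6D replicates 5 and 6 and low in CFA6D replicate 4. On CFA6D Ptgis differed from saline by 0.36 on the log2 scale (limma adjusted p = 0.844). The transcript ENSMUST00000062069 held 47.8% to 71.5% of the Ptgs1 FPKM, with no difference in share between groups beyond their spread (exact p = 1 in each comparison).

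Ptgs2 encodes COX-2, the form that inflammation induces. It was the lowest of the tested genes, at 0.468, 0.263 and 0.417 FPKM in saline, 0.570, 1.61 and 0.132 on CFA3D and 0.234, 0.486 and 0.399 on CFA6D. The CFA3D libraries thus held both the highest and the lowest value of all. As few as 21.1 read pairs stood behind the lowest library and 281 behind the highest. The log2 fold change on CFA3D was 0.44 (SE 0.613, limma adjusted p = 0.997, 95% interval -0.94 to 1.82).

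That value of Ptgs2 had no stable sign, since without CFA3D replicate 2 it was -0.27 (not called) and without CFA3D replicate 3 it was 1.18 (called). On CFA6D it was -0.04 (limma adjusted p = 0.983, 95% interval -1.42 to 1.34). Between the days it was -0.48 (limma adjusted p = 0.859), and -1.22 without CFA3D replicate 3 (called). A log2 increase of 1 lies inside both intervals, so these values do not exclude an increase of that size.

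The ratio of Ptgs2 to Ptgs1 within a library was 0.123, 0.0952 and 0.141 in saline and 0.183, 0.305 and 0.0539 on CFA3D (two-sided exact permutation p = 0.5). On CFA6D it was 0.113, 0.0885 and 0.0629 (exact p = 0.2). The antisense transcript gene Ptgs2os of the lncRNA table reached at most 0.0566 FPKM. Closest to Ptgs2 in pattern were Mmrn2 (r = 0.978), Boc (r = 0.968) and Fgd6 (r = 0.966). Mmrn2 encodes a protein of the vessel wall, and the sum of 9 endothelium and mural markers was 76.0 FPKM in CFA3D replicate 2, where Ptgs2 was highest. That sum was 78.4 FPKM in CFA6D replicate 5, where Ptgs2 was at 0.486 FPKM, and 49.1 to 60.9 in the other 7 libraries. The sum of 8 macrophage markers was highest in CFA3D replicate 2, at 141 FPKM, against 93.5 to 115 in saline and 54.9 to 88.6 on CFA6D. The part of either in the spread of Ptgs2 was not tested.

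The terminal synthases of the group differed most in level. Ptges encodes the inducible prostaglandin E synthase that works with COX-2. It was at 3.90, 3.02 and 4.66 FPKM in saline, at 3.68, 4.94 and 2.81 on CFA3D and at 2.81, 3.55 and 3.30 on CFA6D. All groups overlapped. The log2 fold changes were -0.03 (limma adjusted p = 0.997, 95% interval -0.53 to 0.47) and -0.24 (limma adjusted p = 0.731, 95% interval -0.74 to 0.26). The coding transcript ENSMUST00000102852 held 76.1% to 95.8% of the FPKM, and the genes most like Ptges were Pid1 (r = 0.978), Ovca2 (r = 0.959) and Scpep1 (r = 0.956).

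Ptgds encodes lipocalin-type prostaglandin D synthase, an abundant product of the membranes that surround nervous tissue. Its level stood above 99.9% of tested genes in saline. It was at 757, 170 and 1244 FPKM in saline, 282, 1174 and 1022 on CFA3D and 354, 1264 and 1662 on CFA6D. The highest library was 9.75-fold the lowest, and each group held both low and high libraries. The log2 fold change was 0.36 on CFA3D (SE 0.844, limma adjusted p = 0.997, 95% interval -1.54 to 2.26) and 0.74 on CFA6D (SE 0.844, limma adjusted p = 0.786, 95% interval -1.16 to 2.64). Without saline replicate 2 both turned negative, to -0.48 and -0.10.

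The genes most like Ptgds were the transporter genes Slc13a3 (r = 0.987), Slc22a8 (r = 0.986) and Slc22a6 (r = 0.985), which carry organic acids across membranes. Slc22a8 was at 3.12, 1.00 and 4.56 FPKM in saline, 1.80, 4.78 and 3.62 on CFA3D and 1.71, 4.95 and 7.12 on CFA6D. The lowest values of all 4 genes came from saline replicate 2, CFA3D replicate 1 and CFA6D replicate 4. The sum of 10 markers of meningeal and connective tissue fibroblasts ran from 449 to 554 FPKM in saline, from 433 to 677 on CFA3D and from 327 to 589 on CFA6D, with none of the 10 at 0. This sum did not follow Ptgds within saline, where it was 495.5 FPKM in replicate 2, the lowest library for Ptgds, and 449 in replicate 3, the highest. Its members differed in this. Aldh1a2 was at 4.45, 1.25 and 9.18 FPKM in saline and Foxc1 at 4.93, 3.21 and 5.78, both in the order of Ptgds. Neither kept that order on CFA3D, where Aldh1a2 was at 2.56, 6.34 and 6.88 FPKM and Foxc1 at 5.10, 7.41 and 3.88. Dcn, the largest part of the sum, was at 326, 292 and 269 FPKM in saline and Col1a1 at 46.5, 52.4 and 31.6, both lowest in replicate 3. The amount of meninges in the libraries was not tested.

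The share of the leading Ptgds transcript ENSMUST00000114259 was 51.2%, 44.6% and 48.1% in saline, 47.1%, 49.3% and 49.9% on CFA3D and 52.7%, 53.3% and 56.4% on CFA6D. Every CFA6D library lay above all others in this share. The difference was 6.2 percentage points against saline and 5.36 against CFA3D (two-sided exact permutation p = 0.1 each, the smallest possible with 3 against 3 libraries). Leading shares were compared for the 8 genes with more than 1 measured transcript and enough signal. Of these, 0 did not overlap on CFA3D, 1 on CFA6D and 1 between the days, both times Ptgds. Among 13982 genes with more than 1 transcript, 9.86%, 11.3% and 10.5% did not overlap in these comparisons, so the count lies near the background. Without saline replicate 3 it rose to 3 of 8 on CFA6D, and without CFA6D replicate 4 or CFA3D replicate 3 to 3 of 8 between the days. The 2 main Ptgds transcripts have the same coding length of 567 bases and differ in where they start.

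**Figure D4:**
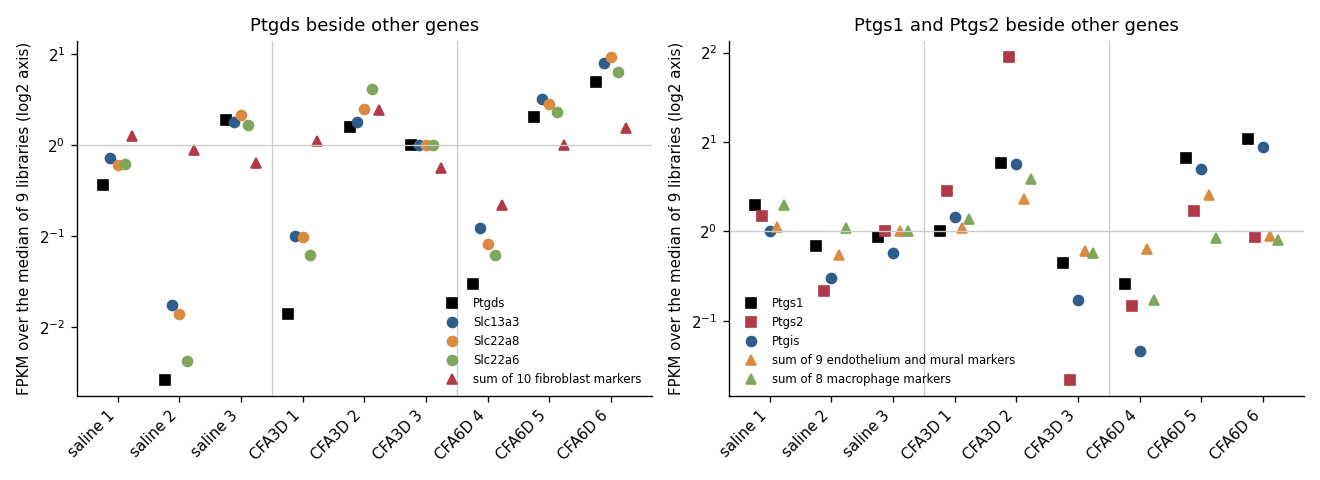
FPKM of Ptgds (left), and of Ptgs1 and Ptgs2 (right), in each library over the median of the 9 libraries, on a log2 axis, beside genes of like pattern and summed marker lists (triangles). Grey vertical lines part the groups, and 1 point is 1 library. Ptgds and the 3 transporter genes are low together in saline replicate 2, CFA3D replicate 1 and CFA6D replicate 4, and Ptgs2 is highest and lowest in CFA3D replicates 2 and 3.

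The bradykinin receptors lie side by side on chromosome 12, Bdkrb2 at chr12:105563226-105595237 and Bdkrb1 at chr12:105603085-105605428, both on the plus strand of GRCm38. Bdkrb2 encodes B2, the receptor of healthy tissue. It had 1 transcript, at 1.15, 0.833 and 1.45 FPKM in saline, 1.02, 0.614 and 1.05 on CFA3D and 1.37, 1.36 and 1.17 on CFA6D. The CFA6D libraries all lay above the CFA3D libraries, and neither group was apart from saline. The log2 fold changes against saline were -0.32 on CFA3D (limma adjusted p = 0.997, 95% interval -0.89 to 0.25) and 0.20 on CFA6D (limma adjusted p = 0.811, 95% interval -0.37 to 0.77).

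Between the days Bdkrb2 differed by 0.52 (SE 0.253, limma adjusted p = 0.680, 95% interval -0.05 to 1.09). Over the alternatives this value lay between 0.29 and 0.65, so it kept its sign, and it was called in none of them. The library that was lowest, CFA3D replicate 2, had 92.1 read pairs behind its value. The genes most like Bdkrb2 were Cirbp (r = 0.960), which encodes a cold-inducible RNA-binding protein, Zc3h6 (r = 0.925) and Gm38394 (r = 0.917).

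Bdkrb1 had a mean of 0.0669 FPKM over the libraries, under the minimum of 0.1 FPKM for a test. It was listed at 0, 0.0996 and 0.0712 FPKM in saline, at 0, 0.140 and 0.0275 on CFA3D and at 0.0438, 0.0845 and 0.136 on CFA6D. At most 7.43 read pairs stood behind a library. Every library thus lay below the lowest Bdkrb2 library, which was at 0.614 FPKM, and differences within the range of Bdkrb1 rest on too few read pairs to be compared.

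The other genes of the pathway were described from 8 lists with 75 genes in the table, of which 65 were tested. On CFA3D 4 of the 65 were called higher and 0 lower, and on CFA6D 10 higher and 1 lower. Between the days 3 were higher on CFA6D and 1 was lower. These calls were 6.15%, 16.9% and 6.15% of the 65, beside 4.45%, 11.1% and 7.39% of all genes. In none of the 65 did the limma adjusted p fall under 0.05. The median log2 fold change of the 65 was 0.09 on CFA3D and 0.06 on CFA6D, beside 0.05 and 0.03 over all genes.

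The change of direction among all genes depended on the scaling. Of the genes called on the FPKM scale, 82.0% were higher on CFA3D and 74.3% on CFA6D. After quantile normalization these shares were 58.3% and 50.1%. Counts of higher genes in the lists should be read against the first pair.

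Arachidonate release held 11 tested genes, of which Mgll was called higher on both days and the others on neither. Mgll encodes monoacylglycerol lipase, which frees arachidonic acid from an endocannabinoid. It was at 11.96, 11.6 and 13.1 FPKM in saline, 17.2, 17.6 and 14.1 on CFA3D and 16.9, 15.3 and 14.9 on CFA6D, with no overlap. Its log2 fold change was 0.41 on CFA3D (SE 0.103, limma adjusted p = 0.997) and 0.36 on CFA6D (SE 0.103, limma adjusted p = 0.235). With its leading transcript in place of the sum it was 0.15 (not called) and -0.40 (not called), and relative to the neuron markers 0.19 (not called) and 0.14 (not called). Pla2g4a, the phospholipase best known for feeding the cyclooxygenases, was at 2.37 to 3.48 FPKM in saline and differed by -0.30 on the log2 scale on CFA6D (limma adjusted p = 0.832).

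Among the 8 other terminal synthases, 0 were called on CFA3D and 1 on CFA6D. Akr1b3, an aldose reductase that can make prostaglandin F2α, was lower on CFA6D, at 11.8, 15.4 and 12.4 FPKM against 18.0, 15.8 and 16.4 in saline and 15.9, 19.8 and 17.1 on CFA3D. Its log2 fold change was -0.35 against saline (SE 0.122, limma adjusted p = 0.329). Against CFA3D it was -0.41 (SE 0.122, limma adjusted p = 0.616). The call against saline was lost without saline replicate 1 (-0.29), CFA6D replicate 4 (-0.27) or CFA6D replicate 6 (-0.31). The most abundant gene of the list was Ptges3, a co-chaperone that also makes prostaglandin E2, with a mean of 38.2 FPKM and a log2 fold change of -0.01 on CFA6D. The list's median was 0.05 on CFA3D and -0.18 on CFA6D.

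None of the 5 genes of prostanoid breakdown and transport was called, and Ptgr2 was the most abundant at 7.55 FPKM. None of the 5 tested genes among the other prostanoid receptors was called either. The D2 receptor gene Ptgdr had a mean of 3.91 FPKM, and the most abundant of the list was Ptgfrn at 5.47 FPKM, a regulator of the F2α receptor. Ptger2, which encodes EP2, was at 0.540, 0.465 and 0.326 FPKM in saline and 0.551, 0.593 and 0.925 on CFA6D, with no overlap and a log2 fold change of 0.53 (limma adjusted p = 0.498).

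The kinin lists held little RNA for making bradykinin. Of 7 kinin formation genes 3 were tested, and the kininogen genes Kng1 and Kng2 had means of 0.0119 and 0.0760 FPKM. Kng2 reached 0.553 FPKM in saline replicate 2 and at most 0.0579 elsewhere. Serping1, the inhibitor of the kallikrein that releases bradykinin, was the most abundant at 79.9 FPKM. None of the 3 was called, nor any of the 8 tested kinin breakdown genes, of which Cpd was the most abundant at 23.3 FPKM.

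The receptor effectors are the G proteins, phospholipases, kinases and arrestins through which these receptors signal. Of 18 genes 3 (16.7%) were called higher on CFA3D and 7 (38.9%) on CFA6D, with 0 lower on either day. Of all genes 3.65% and 8.22% were called higher, and whether the list differs from them was not tested. The list's median was 0.11 on CFA3D and 0.23 on CFA6D.

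Plcb3, Prkaca and Prkce were called on both days, and their groups did not overlap with saline. Of the 65 tested pathway genes, 4 were called on both days, these and Mgll. In 6 of the 65 all CFA libraries lay above all saline libraries, beside 3.34% of all genes. The share of all genes called on both days was not counted, and both days share their saline libraries. Prkaca, the catalytic subunit of protein kinase A, was at 42.2, 39.5 and 44.0 FPKM in saline, 46.8, 50.3 and 53.5 on CFA3D and 61.0, 53.0 and 58.6 on CFA6D. Its log2 fold change was 0.26 on CFA3D (SE 0.0845, limma adjusted p = 0.997) and 0.46 on CFA6D (SE 0.0845, limma adjusted p = 0.106). Plcb3, a phospholipase C downstream of Gq receptors, had 0.30 (limma adjusted p = 0.997) and 0.40 (limma adjusted p = 0.231). Prkce, a protein kinase C isoform known for its part in the sensitization of nociceptors by bradykinin, had 0.18 (limma adjusted p = 0.997) and 0.30 (limma adjusted p = 0.156).

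The CFA3D calls of these 3 genes depended on the settings. For Prkce the CFA3D call was kept in 6 of 16 alternatives. It was lost after quantile normalization (0.077), with only the groups compared, with the leading transcript (0.14) and without saline replicate 2 (0.16), saline replicate 3 (0.14), CFA3D replicate 1 (0.17) or CFA3D replicate 3 (0.17). For Plcb3 it was kept in 9 of 16, and lost after quantile normalization (0.21), with the leading transcript (-0.19) and without saline replicate 3 (0.23), CFA3D replicate 1 (0.28) or CFA3D replicate 2 (0.24). For Prkaca it was kept in 14 of 16, and lost after quantile normalization (0.17). Relative to the neuron markers all 3 CFA3D calls ended, with 0.080 for Plcb3, 0.041 for Prkaca and -0.044 for Prkce. On CFA6D the calls were kept in 14 of 15 alternatives for Prkaca and Prkce and in 13 of 15 for Plcb3.

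On CFA6D the G protein genes Gnaq (0.44, limma adjusted p = 0.162), Gnai2 (0.34, limma adjusted p = 0.347) and Gnai1 (0.15, limma adjusted p = 0.422) were also called higher, as was Grk2 (0.40, limma adjusted p = 0.242), the kinase that switches off active receptors. Grk2 was at 27.8, 25.4 and 23.7 FPKM in saline, 28.2, 23.0 and 26.9 on CFA3D and 33.4, 29.8 and 39.2 on CFA6D. Of these calls, that of Gnai1 was kept in 6 of 15 alternatives, that of Gnai2 in 10, that of Grk2 in 12 and that of Gnaq in 14. The Gnai1 call was lost after quantile normalization (0.073), with only the groups compared and without any 1 library other than saline replicate 1. The Gnai2 call was lost after quantile normalization (0.27) and without saline replicate 1 (0.33), saline replicate 2 (0.31) or CFA6D replicate 6 (0.21). The Grk2 call was lost with the leading transcript (0.35) and without both saline replicate 3 and CFA6D replicate 6 (0.25).

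The most abundant effector was Gnas at 198 FPKM, the Gs subunit that IP and EP4 use, and its log2 fold change was -0.05 on CFA6D (limma adjusted p = 0.894).

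The sum of the neuron markers was 2869, 2562.5 and 2160 FPKM in saline and 3245, 2777 and 2817 on CFA6D, so these groups overlapped. Relative to this sum none of the 7 effectors called on CFA6D was called. On this scale the median of all genes was -0.20, and 5.02% of the genes called were higher, against 74.3% on the FPKM scale. The loss of a higher call was therefore not particular to these effectors. Gnaq then had 0.22, Prkaca 0.23, Grk2 0.18, Plcb3 0.17, Gnai2 0.12, Prkce 0.07 and Gnai1 -0.07. The list also holds Trpv1, the heat and capsaicin channel, which is among the neuron markers. Trpv1 was at 12.1, 10.8 and 9.68 FPKM in saline and 13.5, 13.2 and 13.1 on CFA3D (log2 fold change 0.29, limma adjusted p = 0.997). The part of neuron content in these changes was not tested.

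The list of cytokine inducers of COX-2 and B1 expression also holds cytokine receptors and NF-κB genes. Of its 7 tested genes, none was called on CFA3D, and Nfkbia and Rela were called higher on CFA6D. The tested cytokine genes, Il1b and Tnf, were called on neither day. Nfkbia encodes IκBα, the inhibitor that NF-κB itself induces. It was at 15.9, 14.6 and 12.1 FPKM in saline, 16.1, 18.3 and 10.1 on CFA3D and 27.7, 34.5 and 32.2 on CFA6D. Every CFA6D library lay above every other library. The log2 fold change was 1.15 against saline (SE 0.203, limma adjusted p = 0.103) and 1.12 against CFA3D (SE 0.203, limma adjusted p = 0.476). Relative to the neuron markers it was 0.92 against saline (called).

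Rela, an NF-κB subunit, had 0.34 on CFA6D (limma adjusted p = 0.349), and 0.12 relative to the neuron markers (not called). Its call was also lost without saline replicate 1 (0.31), saline replicate 2 (0.31), CFA6D replicate 4 (0.29) or CFA6D replicate 6 (0.32). The cytokine genes were low and uneven. Il1b was at 0.250, 0.341 and 0.757 FPKM in saline, 0.142, 1.29 and 0.290 on CFA3D and 0.448, 0.380 and 1.69 on CFA6D. CFA6D replicate 6, which held the highest Il1b and Tnf values, was also the library with the highest sum of neutrophil and marrow genes.

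**Figure D5:**
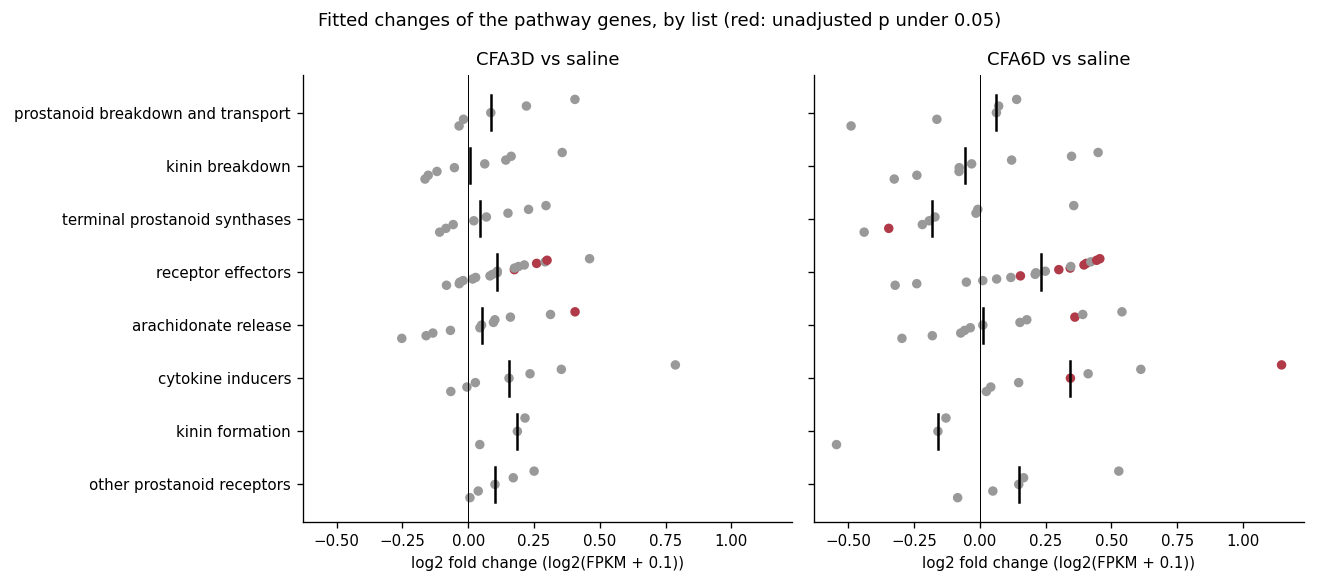
Log2 fold change of each tested pathway gene on CFA3D and CFA6D, by list, on the scale of log2(FPKM + 0.1). Each point is a gene (limma estimate, error not drawn), red marks an unadjusted p under 0.05 and black ticks are list medians. The receptor effectors lie mostly right of 0 on CFA6D (median 0.23), and the point farthest right is Nfkbia at 1.15.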

How the data were processed

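TG RNA was compared in 9 libraries (3 per group, pools of 3 mice). The authors deposited FPKM per transcript in separate mRNA and lncRNA tables. Their methods name ribosomal RNA depletion, a stranded kit, Trimmomatic, GRCm38 and CLC Genomics Workbench, and do not mention FPKM. The submitters' processing notes name Bowtie 0.12.2 and another build (mm8), so which tool made the values is not settled. All per-sample columns of the tables used were read (0 left out), and the table of other noncoding RNA was not used. The labels do not say that replicates within a group are separate cohorts, so p-values measure the spread between these pools.

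Transcripts were joined by ID to GENCODE release 21 (101539 of 102122 matched), and FPKM was summed by gene name. Coordinates are those of GENCODE on GRCm38. The worth of 1 read pair per kb was 0.0237 to 0.0333 FPKM, so read pairs given here are approximate.

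Features whose mean reached 0.1 FPKM were fitted as log2(FPKM + 0.1) on the 3 groups with limma 3.58.1 (R 4.3.3) and a mean trend, over all 9 libraries. Fold changes on this scale understate those of low genes. A call was an unadjusted p under 0.05, with Benjamini-Hochberg adjustment over all features of a table. Transcript shares and ratios were compared with the two-sided exact permutation test, which cannot go below 0.1. On simulated CFA3D and saline data, 200 gene sums were given a log2 change of 1. Of these, 95% were called and 74% passed adjustment, against 74% and 12.5% for transcripts. These shares describe the simulated features as a set. They do not carry over to genes that are low or spread widely between libraries, such as Ptgs2 (SE 0.613 on CFA3D) and Ptgds (SE 0.844). Bdkrb1 was not tested at all. Other steps ran in Python 3.11.15, numpy 2.4.6, pandas 2.3.3 and matplotlib 3.10.9.

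The genes, lists and rule for named genes were chosen with earlier results of these data known. The rule names all 10 genes, the leading transcript of each and any other called, from each list the called genes and the most abundant one, and the 3 genes of highest Pearson r with each tested gene among those with a mean of at least 1 FPKM. Pla2g4a, Ptgis, Ptgdr, Ptger2, Kng1, Kng2, Trpv1, Il1b, Tnf, Aldh1a2, Foxc1, Dcn and Col1a1 fall outside it and were named after their values were seen. Alternatives were pseudocounts of 0.01 and 1, a mean of at least 1 FPKM, no filter, quantile normalization, only the groups compared, a log2 fold change of at least 1, a replicate block, the leading transcript, and each library left out. Leaving out 2 libraries together and scaling to neuron markers were added after seeing the data.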

Additional observations from a re-analysis of the deposited data

Results flagged for a closer look

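CFA6D and CFA3D, which share their saline controls, differed from each other by the limma test of that difference (unadjusted p under 0.05, adjusted p from 0.476 to 0.918) for 4 genes of the pathway lists and 1 transcript. These were Nfkbia (log2 difference 1.12), Grk2 (0.39), Prkaca (0.20), Akr1b3 (-0.41) and ENSMUST00000120563 of Ptger4 (1.22). The call of Prkaca was lost in 7 of its 15 alternatives, the one of Grk2 with its leading transcript in place of the sum, and the one of the Ptger4 transcript without CFA3D replicate 1 (0.96), CFA3D replicate 2 (1.04) or CFA6D replicate 6 (0.97). Groups of 3 libraries are too small for the outlier test that larger groups allow.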

How the results depend on the processing

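Ptgir kept its direction in every alternative in all 3 comparisons, and its call on CFA3D and CFA6D in all but 2 of them, the scaling to the neuron markers and the added cutoff on the log2 fold change, which each ended both calls. Where the log2 fold change also had to reach 1, 0 of the tested genes described were called on CFA3D and on CFA6D, and of all genes 55 on CFA3D, 94 on CFA6D and 124 between the days. Under the same rule 1455, 1710 and 1482 transcripts were called, of which 1 on CFA3D and 0 on CFA6D belonged to these genes. Without a filter on low values 1086 gene sums were called on CFA3D, and on CFA6D 2 transcripts of these genes. With a mean of at least 1 FPKM 1381, 2502 and 1812 transcripts were called. Relative to the neuron markers 0 of the tested genes described were called on either day, and 569 of all genes between the days. The leading transcript in place of the gene sum gave 2 calls on CFA3D and 1 between the days. A pseudocount of 1, a mean of at least 1 FPKM, no filter or only the groups compared left 1 transcript of these genes called on CFA3D. The cause of these moves was not tested, apart from the fewer features that a filter leaves.

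With libraries left out, the number of genes called ran from 489 to 1523 on CFA3D (717 with all, 1523 without saline replicate 1), from 1436 to 1998 on CFA6D and from 814 to 1281 between the days. For transcripts it ran from 2740 to 3832, from 4031 to 4842 and from 3100 to 3583. Among the genes described 1 to 2, 1 to 2 and 0 to 1 were called, and among their transcripts 1 to 4, 1 to 3 and 0 to 3. The number of genes whose leading share did not overlap ran from 0 to 1, from 1 to 3 and from 1 to 3.

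Log2 fold changes that changed sign were all from uncalled differences, apart from those of Plcb3, Prkce, Mgll and Gnai1. With libraries left out on CFA3D, Ptgs1 ran from -0.19 to 0.35, Ptgs2 from -0.27 to 1.18, Ptges from -0.23 to 0.16, Ptgds from -0.48 to 1.01, Ptger1 from -0.060 to 0.21 and Ptger4 from -0.093 to 0.16. On CFA6D, Ptgs2 ran from -0.23 to 0.19, Ptgds from -0.10 to 1.41 and Ptger4 from -0.14 to 0.24. Between the days, Ptgs1 ran from -0.019 to 0.77, Ptgs2 from -1.22 to 0.23, Ptgds from -0.27 to 1.06, Ptger3 from -0.012 to 0.066 and Ptger4 from -0.044 to 0.16. Relative to the neuron markers Ptgs1 was at -0.10, Ptger1 at -0.13, Ptger4 at -0.17 and Prkce at -0.044 on CFA3D, and Ptger4 at -0.11, Bdkrb2 at -0.026 and Gnai1 at -0.071 on CFA6D. By the leading transcript Ptges was at 0.066, Ptger4 at -1.02 and Plcb3 at -0.19 on CFA3D, and Mgll at -0.40 on CFA6D.

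Same-numbered saline and CFA3D libraries did not deviate together (r = 0.06, -0.13 and 0.04), so no pairing by number was seen. With 3 libraries per group, such values cannot exclude that the libraries were handled as pairs. With the replicate block 496 gene sums (717 without it) and 2587 transcripts were called on CFA3D, among them Ptgir (0.50) and 1 transcript of these genes. Saline replicate 1 correlated best with CFA3D replicate 2, not with its own number.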
